A study of Mus musculus with 18 samples.

Results

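Replacement histones are histone variants whose mRNAs carry a poly(A) tail. The 9 genes described here were taken from the deposited table by gene name: H2afz, H2afv, H2afx and H2afy of the H2A class, H3f3a, H3f3b and Cenpa of the H3 class, and H1f0 and H1fx of the linker (H1) class. They are 9 of 47643 genes and 41 of 115125 transcript rows. All 9 passed the filter on low counts in every comparison, and 29 of the 41 transcript rows passed it at transcript level. As the contrast, 70 replication-dependent histone genes, the Hist clusters, were taken from the same table. They were picked by name, which keeps Hist1h2aj and Hist1h2al, both annotated as pseudogenes in GENCODE.

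The RNA was purified total RNA of 5G6GR mouse embryonic stem (ES) cells, a line grown on gelatin without feeders in serum and leukemia inhibitory factor, with puromycin and blasticidin in the medium. In 15 libraries, 10 pg of it went into RT-RamDA, a reverse transcription that copies each RNA many times by displacing the cDNA already made, followed by 17 PCR cycles. There were 5 primer sets with 3 libraries each: random hexamers (N6), not-so-random primers chosen to avoid ribosomal RNA (NSR), oligo(dT) (dT), which anneals to runs of A such as the poly(A) tail, and the mixtures N6dT and NSRdT. The remaining 3 libraries (bulk) started with 200 ng, with ribosomal RNA removed, were primed with N6 and had 7 PCR cycles. The labels name no separate cultures behind the libraries of a group, so p-values measure the spread between libraries, which may be technical.

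Nucleosomes of dividing cells are built mainly from replication-dependent histones, which are made in S phase from intronless genes. Their mRNAs normally end in a short stem-loop in place of a poly(A) tail. Replacement histones are for the most part made throughout the cell cycle, though not all of them. Their genes lie outside those clusters and mostly have introns, and their mRNAs are cleaved after a poly(A) signal and polyadenylated. They exchange into chromatin without DNA replication: H2A.Z and H3.3 at active genes and regulatory elements, macroH2A in silent chromatin, and CENP-A at centromeres. H2afx is known for making both kinds of mRNA, one ending at a stem-loop and one polyadenylated further downstream.

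Examples of both kinds of end signal are shown from annotated transcripts. Windows of 30 bases are printed 5′ to 3′ from GENCODE vM21 transcripts with GRCm38 coordinates (the same assembly as mm10), with the poly(A) signal or the stem-loop in capitals. The first 5 are examples from the H2A, H3 and linker classes, the next pair are both end signals of H2afx, and the last is the stem-loop of a replication-dependent H2A gene for comparison.
H2afz-001 poly(A) signal (chr3:137866885-137866914, plus strand): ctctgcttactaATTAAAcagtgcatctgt
H3f3a-001 poly(A) signal (chr1:180800836-180800865, minus strand): aatttgaaaaatAATAAAagtaccaataga
H3f3b-201 poly(A) signal (chr11:116021987-116022016, minus strand): ataggccttacaAATAAActagtaagtttg
Cenpa-001 poly(A) signal (chr5:30674792-30674821, plus strand): aaaataaataaaAATAAAaataattcctta
H1f0-201 poly(A) signal (chr15:79030471-79030500, plus strand): ttaaaactttaaAATAAAactggaaaggaa
H2afx-001 poly(A) signal (chr9:44336031-44336060, plus strand): tgggctaattttATTAAAggatcgtttggt
H2afx-001 stem-loop (chr9:44335233-44335262, plus strand): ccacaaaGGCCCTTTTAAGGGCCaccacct
Hist2h2aa1-001 stem-loop (chr3:96246025-96246054, plus strand): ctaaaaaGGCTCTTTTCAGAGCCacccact

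The transcripts were searched on their sense strand for AATAAA or ATTAAA in the last 50 bases. Cenpa-001 held 4 matches there, of which only the last is in capitals above. H2afv-001 and H1fx-001 also held AATAAA there, and H3f3a-006, H3f3a-007, H2afv-002 and H2afy-001 held neither, which says only that these letters are not in that window. A signal was present in 50.2% of protein-coding transcripts and in 19 of 72 replication-dependent histone transcripts (26.4%). The histone stem-loop motif matched 48 of those 72 (66.7%) and 41 of 58694 other protein-coding transcripts (0.0699%). Of the protein-coding member transcripts that held at least 10% of their gene's counts, H2afx-001 alone matched it. Its stem-loop began 47 bases after the stop codon and 838 bases before the annotated end, whereas that of Hist2h2aa1 began 59 bases after the stop codon and 51 before the end. Counts of H2afx-001 therefore cannot separate the stem-loop form from the polyadenylated form, since the file lists 1 transcript for the gene. The longest run of A within these transcripts was 12 bases in H3f3b-201 and 10 in H2afy-001, and 3 to 7 in the rest.

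Values below are estimated counts scaled to CPM with trimmed mean of M-values (TMM) factors over all 18 libraries. Libraries held 5333546 to 10234690 estimated counts, with ERCC spike-ins (0.355% to 1.23%) left out. The scaling factors ran from 0.649 to 0.666 with N6, from 0.815 to 0.850 with NSR, from 1.396 to 1.423 with dT and from 1.654 to 1.698 in bulk. Comparisons of random primers with dT, and those with bulk, therefore rest on them. All 5 ES cell markers (Pou5f1, Nanog, Sox2, Zfp42, Dppa5a) were detected in every group, with summed levels from 1002 to 2498 CPM. Primitive endoderm markers summed to 177 to 626 CPM in 17 libraries and to 3654 CPM in bulk replicate 2, which stood apart. Of the 6, 1 was at 0 with NSR and 1 with dT, and their part in the bulk comparisons was not tested. The 5 fibroblast markers summed to 694 to 1330 CPM, nearly all of it Fn1 (group means from 595 to 1109) and Vim (108 to 202), while Col1a1, Col1a2 and Thy1 had group means of at most 3.45 CPM. Counting strand is not given in the sources used here, so reads of a gene and of an antisense partner cannot be told apart.

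Most members gave more signal with oligo(dT) alone than with random primers alone. Compared with dT alone, 6 of 9 members were lower with random primers alone and none was higher by edgeR's quasi-likelihood test (contrast of N6 and NSR with dT, adjusted over 15682 genes), against a background of 7.54% of genes called lower and 9.53% higher. The call for H2afx, 1 of the 6, was lost when all counts of 2 related histone pseudogenes were added to it. That sum includes reads outside their shared sequence, so it cannot say how much of the H2afx difference rests on shared reads. The median log2 fold change was -1.13 over the members and 0.12 over all genes tested. The replication-dependent histones went the other way: 51 of 63 tested were higher with random primers and 1, Hist1h2ap, was lower (named after its values were seen), with a median of 4.73. In the text that follows, ± after a log2 fold change is its standard error (SE), and ± after a level is an SD over 3 libraries.

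H2afz encodes the major form of H2A.Z and had the largest log2 difference of the members. It stood at 106, 134 and 121 CPM with N6, at 151, 152 and 208 with NSR, and at 600, 702 and 650 with dT. The mixtures lay between, at 372, 372 and 410 with N6dT and at 474, 400 and 371 with NSRdT, close to the 376, 319 and 368 of bulk. Every dT library was above every mixture library, and every mixture library above every library with random primers alone. H2afz was lower with random primers than with dT by -2.18 ± 0.12 (log2, adjusted p = 1.81e-09). Adding dT to random primers raised it by 1.48 ± 0.11 (adjusted p = 1.66e-07). A processed pseudogene, Gm8203, shares 18.7% of the 31-base words of H2afz and reached 40.2% of its CPM in 1 library. With such copies added, the difference from dT was -1.97 and the gain from added dT 1.27, both still called.

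H2afv encodes the second form of H2A.Z and was about 10 times less abundant than H2afz in bulk by counts (ratio 10.2 ± 0.863). It stood at 30.2, 26.2 and 28.9 CPM with N6, at 22.9, 26.6 and 31.9 with NSR, and at 79.9, 47.9 and 99.5 with dT. The mixtures gave 42.7, 29.1 and 51.6 for N6dT and 41.5, 40.1 and 36.3 for NSRdT, and bulk 34.0, 30.8 and 39.4. The lowest dT library was above all 6 libraries with random primers alone but inside the range of N6dT, and the spread within dT was wide. The log2 difference between random primers and dT was -1.44 ± 0.25 (adjusted p = 0.000793). Added dT gave 0.54 ± 0.22, which did not pass (adjusted p = 0.394). The ratio of H2afz to H2afv counts was 4.27 ± 0.814 with N6, 6.28 ± 0.496 with NSR and between 9.56 and 10.5 in the other RT-RamDA groups.

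H2afx encodes H2A.X, the variant that is phosphorylated around DNA breaks. It stood at 170, 155 and 182 CPM in bulk, at 80.3, 115 and 91.9 with dT, at 56.5, 80.9 and 65.0 with N6, and at 47.9, 45.8 and 39.1 with NSR. The mixtures gave 59.6, 62.4 and 58.7 for N6dT and 61.0, 65.0 and 63.6 for NSRdT. One N6 library (80.9) overlapped the lowest dT library (80.3), and all bulk libraries were above all RT-RamDA libraries. The log2 difference between random primers and dT was -0.80 ± 0.18 (adjusted p = 0.00496), a smaller estimate than for the other called members. Added dT gave 0.18 ± 0.15 (adjusted p = 0.885). The transcript shares 120 of its 1354 31-base words (8.86%) with replication-dependent histone genes, the only member to share any, so some reads cannot be assigned. Among them are 2 genes annotated as pseudogenes, Hist1h2aj with 120 shared words, which reached 80.3% of the H2afx CPM in 1 library, and Hist1h2al with 74, which reached 84.8%. With all counts of both added to H2afx, the difference between random primers and dT was -0.03 and was not called (edgeR adjusted p = 0.948). That for added dT was -0.29 (adjusted p = 0.59). Both pseudogenes are in the list of replication-dependent histones, and most of their sequence is not known to be shared with H2afx. The sum therefore does not measure how many reads were wrongly assigned.

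H2afy encodes macroH2A1, which is known from the inactive X chromosome. It stood at 54.3, 40.8 and 56.2 CPM with N6, at 44.9, 55.0 and 62.4 with NSR, and at 109, 84.8 and 42.6 with dT. The third dT library lay among the libraries with random primers. The mixtures gave 34.7, 31.6 and 51.4 for N6dT and 40.5, 45.1 and 51.0 for NSRdT, and bulk 53.5, 48.3 and 50.6, so outside dT the groups overlapped. The log2 difference between random primers and dT was -0.59 ± 0.27 and did not pass (adjusted p = 0.15), while without dT replicate 3 it was -0.91 and passed (adjusted p = 0.0229), as it did on library totals without TMM factors, at -1.51.

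H3f3a and H3f3b encode the same H3.3 protein. H3f3a stood at 184, 192 and 163 CPM with N6, at 147, 142 and 167 with NSR, and at 545, 517 and 486 with dT. The mixtures gave 300, 301 and 295 with N6dT and 333, 322 and 269 with NSRdT. Bulk gave 270, 199 and 239. As for H2afz, dT libraries, mixtures and libraries with random primers alone formed 3 separate ranges. H3f3a was lower with random primers than with dT by -1.64 ± 0.10 (adjusted p = 7.87e-09), and added dT raised it by 0.88 ± 0.09 (adjusted p = 9.2e-06).

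H3f3b had a smaller range. It stood at 185, 150 and 170 CPM with N6, at 145, 137 and 109 with NSR, and at 324, 295 and 355 with dT. The mixtures gave 199, 218 and 223 with N6dT and 192, 187 and 197 with NSRdT, so again the 3 kinds of library did not overlap, and bulk gave 239, 220 and 219. The log2 difference between random primers and dT was -1.13 ± 0.12 (adjusted p = 4.67e-06). Added dT gave 0.45 ± 0.10 (adjusted p = 0.0228), a call that was lost without any 1 of 7 libraries: N6 replicates 2 and 3, NSR replicate 3, N6dT replicates 2 and 3, and NSRdT replicates 1 and 3 (adjusted p from 0.0602 to 0.0814), and with no filter on low counts (adjusted p = 0.101). The ratio of H3f3a to H3f3b counts was 1.04 ± 0.120 in bulk, 1.08 ± 0.176 with N6 and 1.19 ± 0.290 with NSR. It was 1.60 ± 0.204 with dT and, in the mixtures, 1.40 ± 0.0917 for N6dT and 1.61 ± 0.211 for NSRdT.

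Cenpa encodes the centromeric H3 variant CENP-A. It stood at 68.1, 34.9 and 57.5 CPM with N6, at 21.8, 44.0 and 42.7 with NSR, and at 76.3, 126 and 130 with dT. The dT libraries were all above those with random primers alone, although dT replicate 1 (76.3) was near N6 replicate 1 (68.1). The mixtures gave 74.1, 78.4 and 51.1 for N6dT and 65.8, 57.1 and 57.0 for NSRdT, around the 59.6, 58.2 and 60.1 of bulk. The log2 difference between random primers and dT was -1.33 ± 0.26 (adjusted p = 0.00233). Added dT gave 0.54 ± 0.23 and did not pass (adjusted p = 0.438).

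The linker variants were low throughout. H1f0 encodes H1.0, a linker histone known from slowly dividing and differentiated cells, and it stood at 9.21, 14.7 and 7.63 CPM with N6, at 6.88, 11.4 and 4.98 with NSR, and at 2.37, 1.46 and 8.10 with dT. It was the only member with a positive log2 difference between random primers and dT, 1.19 ± 0.67, which did not pass (adjusted p = 0.253). Bulk was highest at 18.8, 28.5 and 17.3 CPM, and all but the first libraries of N6dT (15.2) and NSRdT (15.8) were at most 11.0 in the mixtures. The dT libraries held 33.0, 21.0 and 115 estimated counts of it, and the third overlapped the libraries with random primers. H1fx, the other linker variant, held at most 149 estimated counts in a library, and its log2 difference was -0.48 ± 0.69 (adjusted p = 0.699).

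**Figure D1:**
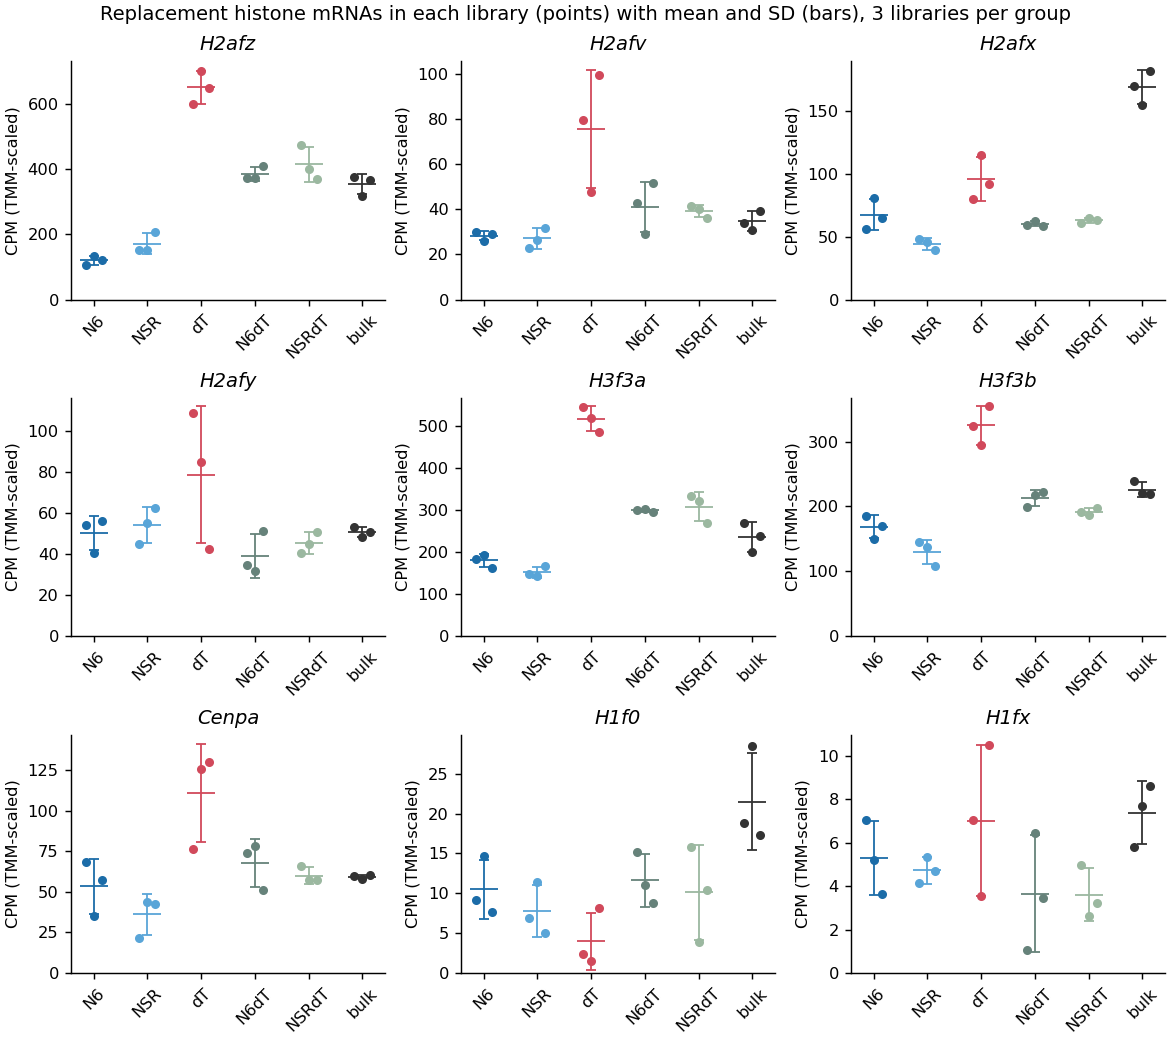
Level of each member by library (points, TMM-scaled CPM) with the group mean and SD for the 5 primer sets and bulk, 3 libraries each. H2afz, H3f3a and H3f3b are highest with dT, lowest with N6 and NSR and intermediate in the mixtures, and H2afx is highest in bulk.

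Mixing the primers can also be read from the side of dT, although this comparison shares its dT libraries with the one above. Compared with dT alone, 6 members were lower when random primers were added (background 3.81% lower and 6.36% higher): H2afz (-0.69 ± 0.13), H2afv (-0.90 ± 0.25), H2afx (-0.62 ± 0.18), H2afy (-0.89 ± 0.27), H3f3a (-0.76 ± 0.11) and H3f3b (-0.67 ± 0.12). Adjusted p ranged from 0.000153 for H3f3a to 0.0455 for H2afy. The calls for H2afv, H2afx and H2afy were lost under several alternatives. With only the groups compared, H2afv (adjusted p = 0.0621) and H2afy (0.0883) did not pass. Without a filter on low counts H2afx did not pass (adjusted p = 0.129), nor did it with the 2 histone pseudogenes added (-0.32, adjusted p = 0.265). Cenpa, at -0.79 ± 0.27, missed the threshold (adjusted p = 0.0729). It was called lower by DESeq2 (-0.76, adjusted p = 0.0456), without a filter (0.0324), with only the groups compared (0.0484), on library totals (0.000728) and without dT replicate 1 (0.0362). The count of called members fell to 3 without N6dT replicate 1, N6dT replicate 2, or any 1 of the NSRdT libraries, and the calls for H2afz, H3f3a and H3f3b were not lost under any alternative run. From the side of random primers, 3 members rose when dT was added, H2afz, H3f3a and H3f3b, and none fell (background 1.8% higher and 0.376% lower). The replication-dependent histones showed 45 of 63 higher and none lower when random primers were added to dT, and 0 higher and 2 lower (Hist1h1c and Hist1h3b, the second named after its values were seen) when dT was added to random primers.

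**Figure D2:**
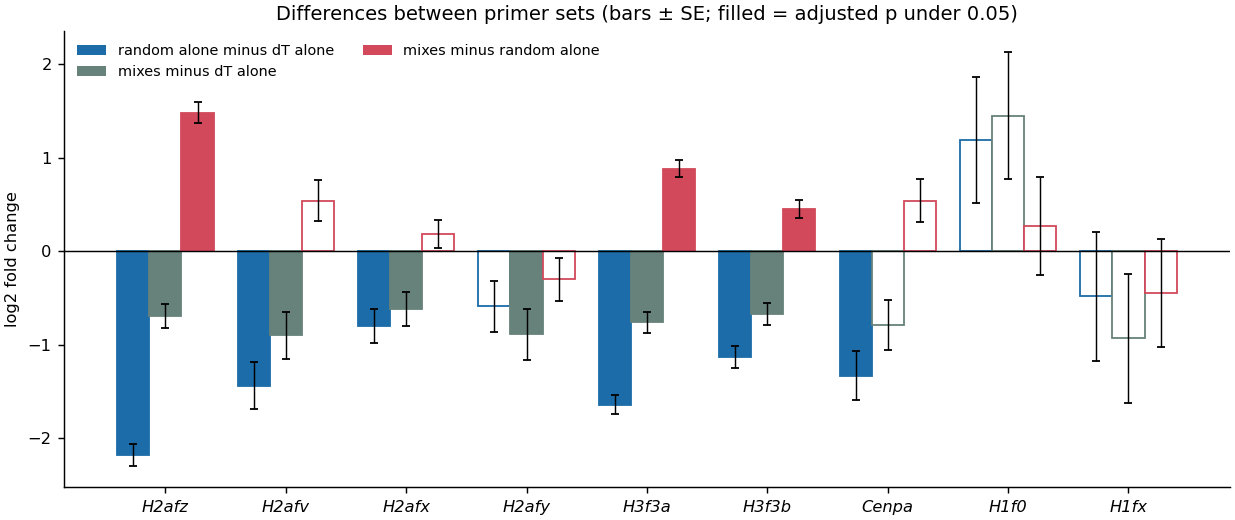
Log2 fold change ± SE of each member in 3 primer comparisons fitted on the 15 RT-RamDA libraries, with filled marks for an adjusted p under 0.05. Random primers alone lie below dT for 8 of 9 members, and H1f0 is the only one above 0 there.

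Within a library, the share of a histone class that comes from its replacement members does not depend on the scaling between libraries. For the H3 class, H3f3a and H3f3b together made up 97.9%, 96.6% and 99.2% of counts with dT, 44.0%, 40.7% and 36.6% with N6, and 33.7%, 41.7% and 37.6% with NSR. The mixtures gave 64.3%, 62.7% and 64.8% with N6dT and 66.5%, 71.1% and 65.9% with NSRdT, and bulk gave 29.2%, 26.4% and 26.2%. No library of any group with random primers alone, of the mixtures, of dT or of bulk entered the range of another of these 4 kinds. The replication-dependent H3 genes summed to 1229 ± 60.9 CPM in bulk, 18.1 ± 10.8 with dT, 515 ± 54.0 with N6 and 475 ± 93.1 with NSR.

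For the H2A class, the 4 members made up 31.5%, 29.9% and 31.6% in bulk, 78.6%, 80.2% and 81.0% with dT, 25.2%, 28.6% and 27.4% with N6, and 31.3%, 38.3% and 42.5% with NSR. With N6dT the share was 44.2%, 50.1% and 51.6%, and with NSRdT 59.8%, 59.5% and 57.8%. The N6 libraries lay just below the bulk range and the NSR libraries reached above it. The remaining replication-dependent H2A signal with dT was 226 ± 16.1 CPM, larger than that of H3. The replication-dependent H2A sums include the pseudogenes Hist1h2aj and Hist1h2al, which share sequence with H2afx. For the linker class, H1f0 and H1fx together were 2.20% ± 0.528 in bulk, 1.39% ± 0.330 with N6 and 1.63% ± 0.454 with NSR. The mixtures were at 1.76% ± 0.305 for N6dT and 2.43% ± 1.17 for NSRdT. With dT they were 26.4%, 13.4% and 35.6%, at a summed level of 11.0 ± 6.94 CPM, while the replication-dependent linker genes were at 30.7 ± 3.96 CPM against 1116 ± 69.9 with N6. These shares are given as a description, with no test. CENP-A was not counted in the H3 class.

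**Figure D3:**
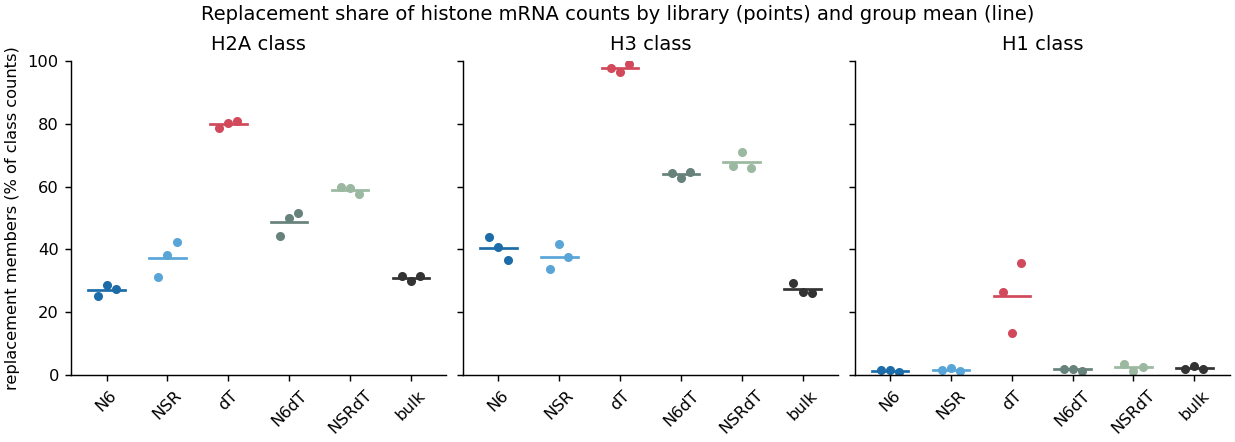
Share of estimated counts of the H2A, H3 and H1 classes that came from replacement members, in percent, by library (points) with the group mean (line). With dT the H3 share lies between 96.6% and 99.2%, and the mixtures lie between random primers alone and dT in the H2A and H3 classes.

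The 2 kinds of random primer were compared over the libraries with and without dT. No member was called between NSR and N6 by edgeR (background 0.172% of genes called), and DESeq2 also called 0. In edgeR, 2 members had an unadjusted p under 0.05, as did 848 of the 15682 genes tested. H2afz was at 0.31 ± 0.11 (adjusted p = 0.759), Cenpa at -0.37 ± 0.22 and H3f3b at -0.26 ± 0.10. On library totals alone, without TMM factors, the H2afz difference was 0.72 and was called (adjusted p = 0.001), and the median of all genes moved from 0.01 to 0.42. The interaction of NSR with dT called no member (background 0.0638%), and DESeq2 called 0. In edgeR, 1 member had an unadjusted p under 0.05 for it, as did 688 of the 15682 genes tested. The ratio of H2afx to H2afz counts is free of that scaling and was 0.477 ± 0.0226 in bulk, 0.558 ± 0.0381 with N6, 0.269 ± 0.0704 with NSR, and on average between 0.146 and 0.157 in the groups with dT. The ranges of N6 and NSR did not overlap (0.535 to 0.602 and 0.188 to 0.317), and no test of this ratio was run.

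Bulk RNA differed from RT-RamDA in input, kit, depletion and PCR cycles, so these comparisons measure all of them together. Bulk replicate 2 also stood apart in primitive endoderm markers (3654 CPM against 465 and 425 in bulk replicates 1 and 3). A difference in the RNA itself cannot be told apart from the others. H2afx was lower than bulk with all 5 primer sets: -0.81 ± 0.16 with dT, -1.31 ± 0.15 with N6, -1.93 ± 0.13 with NSR, and -1.45 ± 0.11 and -1.40 ± 0.10 in the N6dT and NSRdT mixtures. The call with dT was lost without any 1 of the bulk libraries (adjusted p from 0.0523 to 0.0818), and the other 4 were kept. No other member passed in edgeR between the mixtures and bulk (background 2.09% lower and 2.7% higher with N6dT, 2.58% and 2.69% with NSRdT), and H2afz, H2afv, H3f3b and Cenpa were within 0.28 of it on the log2 scale. DESeq2 also called H3f3a higher than bulk in both mixtures, by 0.41 with N6dT (adjusted p = 0.0191) and 0.44 with NSRdT (adjusted p = 0.0357). The comparisons share the bulk libraries.

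With N6, H2afz (-1.55 ± 0.12, adjusted p = 0.000445) and H2afx were lower than bulk and none was higher (background 3.9% lower and 3.31% higher), and DESeq2 also called H3f3b lower (-0.37, adjusted p = 0.0207). With NSR, H2afz (-1.05 ± 0.15), H2afx, H3f3a (-0.63 ± 0.14) and H3f3b (-0.79 ± 0.13) were lower and none was higher (background 4.65% lower and 4.01% higher), and without bulk replicate 1 or bulk replicate 3 only H2afx was called. With dT, H2afz (0.89 ± 0.10), H2afv (1.14 ± 0.29), H3f3a (1.14 ± 0.12), H3f3b (0.54 ± 0.10) and Cenpa (0.92 ± 0.22) were higher and H2afx was lower (background 6.9% higher and 11.9% lower). Adjusted p of the 5 higher members ranged from 0.00388 for H3f3a to 0.0397 for H2afv. Without bulk replicate 1 or bulk replicate 2, the calls for H2afz and H3f3a were left. Without bulk replicate 3 none passed, with H2afz at 0.92 (adjusted p = 0.0515) and H3f3a at 1.16 (adjusted p = 0.052). Without a filter on low counts the calls for H3f3a with NSR (edgeR adjusted p = 0.056) and for H2afv (0.0639) and Cenpa (0.0598) with dT were lost, and in 1 fit of all libraries that for Cenpa (0.0506).

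Counts called on library totals alone have no share of all genes beside them, and cannot be read as particular to the members. On totals all 9 members were called lower than bulk with N6, NSR and N6dT, where the median of all genes moved to -1.39, -1.03 and -1.23. With NSRdT 7 were called lower, and with dT 2 higher calls and 1 lower were left. Relative to that median H2afz was still lower with N6 and higher with N6dT, at -1.05 against -1.23 in the latter. H1f0 had a negative log2 difference from bulk with every primer set, from -0.86 ± 0.32 with N6dT to -2.42 ± 0.73 with dT, and passed with none in the edgeR fits of 6 libraries. DESeq2 called it lower with dT (-2.45, adjusted p = 0.00497) and with NSR (-1.43, adjusted p = 0.011), as did 1 edgeR fit of all libraries with dT (-2.43, adjusted p = 0.0244). H1fx passed with none, at -0.06 ± 0.57 with dT and -0.98 ± 0.64 with N6dT.

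**Figure D4:**
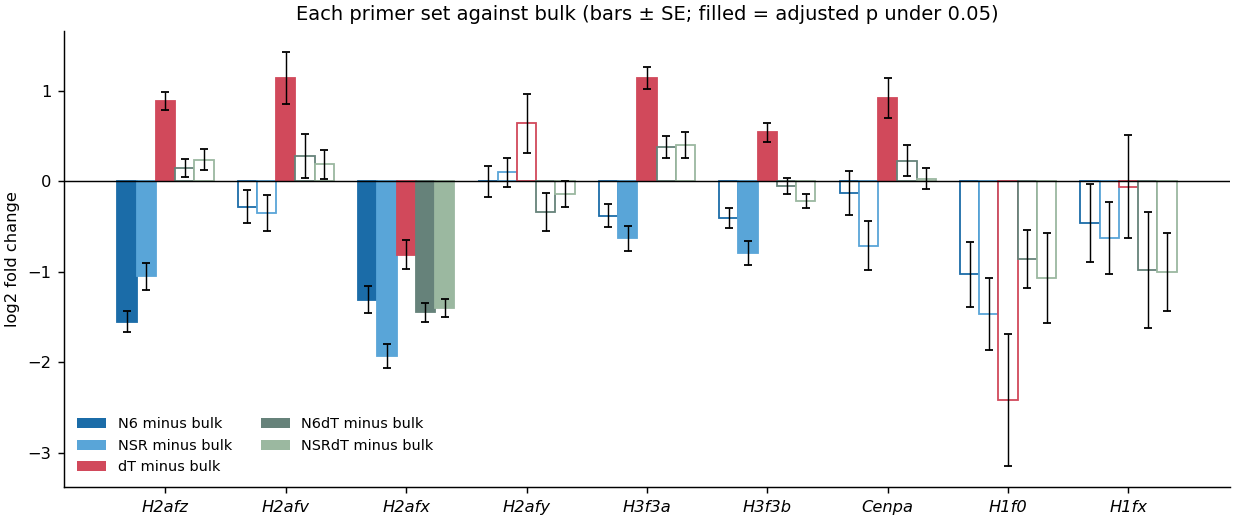
Log2 fold change ± SE of each member between each primer set and bulk, each fitted on its own 6 libraries with TMM scaling; filled bars have an adjusted p under 0.05. H2afx is below 0 with all 5 primer sets, and the higher calls with dT are H2afz, H2afv, H3f3a, H3f3b and Cenpa. On library totals alone the values with N6, NSR and N6dT are all negative and called. The median of all genes is negative there too, and the share of all genes called is not given.

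Levels between genes were compared per kilobase of count-weighted transcript length, and each is an average over cells, in which fewer expressing cells and less RNA per cell cannot be told apart. In bulk the order was H2afz (343 ± 30.2 CPM per kb), H3f3a (168 ± 25.5), H2afx (122 ± 9.82), H3f3b (117 ± 6.08), Cenpa (31.5 ± 0.533), H2afv (28.5 ± 3.56), H2afy (27.4 ± 1.41), H1f0 (9.41 ± 2.64) and H1fx (6.05 ± 1.19). H2afx and H3f3b overlapped in range, as did Cenpa with H2afv and H2afv with H2afy. With dT, H2afz (631 ± 49.6), H3f3a (368 ± 21.2) and H3f3b (169 ± 15.6) led without overlap and H2afx stood at 69.1 ± 12.6, overlapping H2afv. With N6 the first place was shared, since H3f3a (128 ± 10.9) and H2afz (117 ± 13.9) overlapped. H3f3b was ahead of H2afx in all 5 RT-RamDA groups without overlap. The order depends on the length used: divided by the longest transcript, H3f3a stood at 83.0 in bulk, under H2afx (122) and H3f3b (89.9), and Cenpa (15.6) and H2afy (12.6) under H2afv (21.3).

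The split of a gene's counts between its transcripts differed with the primers. Shares of a gene's counts were compared between 6 libraries with random primers alone and 3 with dT for 10 transcripts that held at least 10% of their gene, by an exact permutation test, two-sided, adjusted over the 10; the smallest p these numbers allow is 0.0119. The long H3f3a-001 (2841 bases, with the poly(A) signal shown above at its end) held 5.44%, 4.07% and 5.48% with N6 and 6.46%, 1.93% and 4.67% with NSR. It held 38.4%, 30.4% and 34.6% in bulk, 25.8%, 33.0% and 27.9% with dT, 26.1%, 30.8% and 26.9% in N6dT, and 36.9%, 29.7% and 30.1% in NSRdT. Its share with random primers alone was 4.68% against 28.9% with dT, and no library with dT in the reaction or of bulk was under 25.8% (exact p = 0.0119, adjusted 0.0238). At transcript level it was lower by -4.30 ± 0.31 with random primers than with dT and rose by 3.60 ± 0.28 when dT was added (edgeR adjusted p = 2.07e-07 and 1.86e-06).

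The 888-base H3f3a-006 held about the same share under both, 63.4% and 63.3% (exact p = 0.964). The short H3f3a-007 (481 bases) took 26.7% with random primers alone and 7.77% with dT (exact p = 0.0119, adjusted 0.0238), against 2.28% ± 0.979 in bulk. Its own level was 51.4 ± 2.43 CPM with N6, 36.8 ± 9.63 with NSR and 39.7 ± 8.12 with dT, and the contrast of N6 and NSR together with dT was not called (log2 0.10 ± 0.39, edgeR adjusted p = 0.931).

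H2afv has 2 transcripts in the file, so their shares mirror each other. The 519-base H2afv-002 held 14.6% with random primers alone and 38.5% with dT (exact p = 0.0119, adjusted 0.0238), and 49.8% ± 1.56 in bulk. Its dT libraries were at 46.0%, 42.6% and 27.1% and the highest library with random primers alone was at 23.2%. H2afy-008, a retained-intron transcript, held 26.0% with random primers and 0.00%, 18.2% and 0.00% with dT (exact p = 0.0119, adjusted 0.0238), and 3.09% ± 0.997 in bulk. The level of H2afy-008 was not called between random primers and dT (log2 1.35 ± 1.43, edgeR adjusted p = 0.598). In dT replicate 2 it was 15.4 CPM, against means of 12.8 with N6 and 13.9 with NSR. Shares of H2afy-001 and of 3 Cenpa transcripts did not pass (adjusted p from 0.198 to 0.964). Over all 29 member transcripts tested, 2 were higher and 8 lower with random primers alone (background 4.95% and 3.49% of transcripts), and 4 were higher and 0 lower with added dT (0.951% and 0.235%). These splits are the authors' estimates, and their own error is not in the tests.

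**Figure D5:**
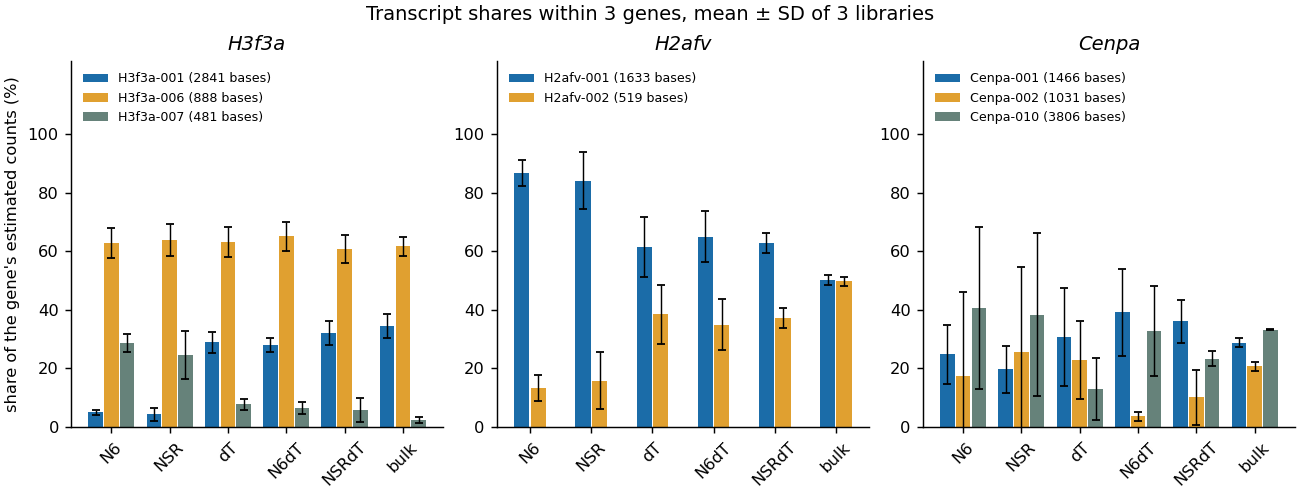
Percent of a gene's estimated counts held by transcripts of H3f3a, H2afv and Cenpa in the 5 primer sets and bulk, as bars of the mean ± SD of 3 libraries. In single libraries, which are not drawn, H3f3a-001 is between 1.93% and 6.46% with N6 and NSR and between 25.8% and 38.4% elsewhere. H3f3a-007 moves the other way.

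The members can be set against protein-coding genes of like length. Among protein-coding genes whose main transcript has 1000 to 1500 bases, the median log2 difference between random primers and dT was -0.84 and 23.2% of 1098 genes were called lower; from 1500 to 2000 bases the values were -0.55 and 14.7% of 1365 genes. H2afz (1069 bases), Cenpa (1466) and H2afv (1633) were further below 0 than the medians of their bins, as was H3f3b (1993). For H3f3a, whose main transcript has 888 bases, the bin from 500 to 1000 bases had a median of -1.40 and 41.9% called, against its -1.64. H2afx (1384 bases) was close to the median of its bin and H1fx (1217) above it. From 2000 to 2500 bases the median was -0.35 and 8.21% of 1328 genes were called lower, with H2afy (2046 bases) below it and H1f0 (2287) above. Across the 9 members the difference was higher for longer transcripts (Pearson r = 0.695, Spearman rho = 0.617), a description over genes that share the same libraries. H1f0 had both the longest main transcript and the highest difference (1.19 ± 0.67, not called). How far the correlations rest on it was not tested.

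Genes that deposit these variants or process histone mRNA were called in both directions, against 9.53% of all genes called higher and 7.54% lower. Of 8 H3.3 deposition genes, Hira (2.49 ± 0.52), Atrx (1.43 ± 0.19) and Ubn2 (1.89 ± 0.35) were higher with random primers than with dT and Dek (-0.47 ± 0.14) was lower, with a list median of 0.36. Of 11 genes for H2A.Z exchange, the large ATPases Srcap (4.80 ± 0.53) and Ep400 (1.74 ± 0.34) were higher, and Yeats4 (-1.68 ± 0.36), Actl6a (-0.91 ± 0.21) and Ruvbl1 (-1.03 ± 0.25) were lower, with a median of -0.19. Of 7 genes for CENP-A deposition and the centromere, Mis18a (-1.33 ± 0.38) was lower. Supt16, a subunit of the FACT chaperone, was the 1 called of 6 replication-coupled chaperones (0.61 ± 0.17). Of 6 genes for stem-loop histone mRNA processing, Casp8ap2 was higher (1.29 ± 0.31) and Lsm10 lower (-2.59 ± 0.71). Added dT called none of the genes of these 5 lists, in a comparison that called 1.8% of all genes higher and 0.376% lower. Hira, Yeats4, Actl6a and Ruvbl1 were named after their values were seen. Of 7 other replacement histones 2 were tested, H2afj (-0.99 ± 0.55) and H2afy2 (0.24 ± 0.42), and neither passed.

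Over the 18 libraries and 3112 genes searched, the patterns most like that of H2afz were those of Rps20 (Pearson r of log2 CPM + 1 of 0.976), Rps21 (0.974) and Hspe1 (0.971). For H3f3a they were Cox5a (0.967), Rps4x (0.963) and Tpt1 (0.963), and for H3f3b Atp5j2 (0.962), Rpl17 (0.950) and Rps24 (0.948). H2afx was most like Rpl28 (0.916), H2afv like Tubb4b (0.900), Cenpa like Srsf2 (0.891) and H2afy like Psmc4 (0.794). H1f0 was most like Acin1 (0.878) and had the replication-dependent gene Hist1h4d in the third place (0.780). H1fx had no neighbour above Ss18 (0.688). These correlations describe libraries that fall into groups by primer, and carry no test.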

How the data were processed

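The authors deposited 1 table of estimated counts per GENCODE transcript, per the file headers, and all 18 library columns were used. The submitters' processing notes name bcl2fastq 2.16.0.10 and mm10, and the sources used here give no aligner, quantifier or counting strand. The series text counts 12 RT-RamDA samples where 15 are listed, and all 15 were analysed.

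Estimated counts were summed per gene identifier and rounded, leaving out 92 ERCC rows. The test for genes and transcripts came from edgeR 4.0.16, run in R 4.3.3 (TMM, filterByExpr, quasi-likelihood F test, two-sided, Benjamini-Hochberg adjustment over all features tested, called at an adjusted p under 0.05). One fit of all 15 RT-RamDA libraries gave the primer comparisons, and separate fits of 6 libraries compared each primer set with bulk. An SE is the log2 fold change divided by the square root of F. Levels per kilobase use the count-weighted mean transcript length. Shared sequence was counted as 31-base words of GENCODE vM21 transcripts. The file lists H1f0-201 with 2287 bases, and vM21 has 2055, so its window comes from the shorter model.

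The members and lists were chosen with earlier results of these data known. Named genes are the members and their transcripts with at least 10% of the gene, the 2 highest genes of each list by level and its 2 lowest by p between random primers and dT, and for each member the 3 genes nearest in pattern at a mean log2 CPM of 5 or more, not all of which are printed. Alternatives were library totals, DESeq2 1.42.0, no filter, a replicate block, other sets of libraries, leaving out each library, and adding copies that share at least 10% of a member's 31-base words. Added after seeing the data were every pseudogene with 50 or more shared words not named as a replication-dependent histone, and, separately, the 2 that are (Hist1h2aj and Hist1h2al). The test scripts were tested on simulated data with 200 changed genes. Between random primers alone and dT alone, they called 9% of simulated log2 changes of size 1 and 55% of those of size 2. For dT against bulk they called 0% and 26%. The changed genes were drawn at random from genes above 5 CPM. These shares are therefore averages over levels, and not the share to be had for a given member. Differences of these sizes can go uncalled. Tables and figures were made with Python 3.11.15, numpy 2.4.6, pandas 2.3.3, scipy 1.17.1 and matplotlib 3.10.9. No protein sequences were used here.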

Additional observations from a re-analysis of the deposited data

How the results depend on the processing

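Over all alternatives, 1147 of 1296 member values kept their direction and side of the threshold, 75 lost a call, 38 gained one and 36 changed sign, none of these called with TMM. Adding copies that share at least 10% of a member's 31-base words changed no call, nor did adding the pseudogenes with 50 or more shared words. With all counts of Hist1h2aj and Hist1h2al added, H2afx lost its calls between random primers and dT (-0.03) and for random primers added to dT (-0.32). It was at -0.29 for added dT. Library totals in place of TMM moved the median of all genes, from 0.12 to -0.80 between random primers and dT, from 0.01 to 0.42 between NSR and N6, and from -0.03 to -1.39, -0.03 to -1.03, -0.19 to -0.45, -0.03 to -1.23 and -0.04 to -0.75 between N6, NSR, dT, N6dT, NSRdT and bulk. On totals 1 member was called between NSR and N6, 9 between N6 and bulk, 9 between NSR and bulk, 3 between dT and bulk, 9 between N6dT and bulk and 7 between NSRdT and bulk. The share of all genes called on totals is not given, so these counts have no background. The sign changes on totals were, between NSR and N6, H2afv 0.35, H2afx 0.14, H3f3a 0.31, H3f3b 0.14, Cenpa 0.04, H1f0 0.09 and H1fx 0.31. For H2afy they were -1.36 with N6 and -0.91 with NSR against bulk. For N6dT against bulk they were H2afz -1.05, H2afv -0.93, H3f3a -0.82 and Cenpa -0.97, and for NSRdT against bulk H2afz -0.47, H2afv -0.52, H3f3a -0.31 and Cenpa -0.68.

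DESeq2 called 2 members for N6dT and 2 for NSRdT against bulk (H2afx lower and H3f3a higher in both), and 8 member transcripts for added dT, where the fit without a filter called 7. Without a filter H2afy changed sign to -0.12 with N6 and -0.01 with NSR against bulk, and Cenpa to -0.06 with NSRdT; in 1 fit of all libraries H2afy with N6 was at -0.01. Leaving out 1 library, the count ranged from 3 to 5 for random primers added to dT, from 1 to 4 for NSR against bulk, from 0 to 6 for dT against bulk, and from 1 to 2 for N6dT against bulk. Shares of transcripts ranged from 0 to 5 called, with 0 whenever a dT library was left out, since 2 dT libraries allow no smaller p. Ranges that crossed 0 when 1 library was left out were H2afv from -0.17 to 0.04 and H1fx from -0.30 to 0.26 between NSR and N6, and against bulk H2afy from -0.09 to 0.13 with N6 and from -0.03 to 0.20 with NSR, Cenpa from -0.37 to 0.09 with N6 and from -0.05 to 0.06 with NSRdT, and H1fx from -0.48 to 0.26 with dT. Other causes of these changes were not tested.

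Deviations from the group mean were correlated between libraries of different groups over 7582 genes. Correlations ran from -0.040 to 0.042 for the same replicate number and from -0.037 to 0.031 for other numbers. Of 18 libraries, 10 were nearest to one of their own number. Every group held 3 libraries, numbered alike, and this count was not tested against the number to be had without pairing. With the replicate block 6 members were called between random primers and dT, as without it, and 2 between dT and bulk in place of 6. The block also ended the calls for H2afy with random primers added to dT (-0.90, adjusted p = 0.0693) and for H3f3a between NSR and bulk (-0.62, adjusted p = 0.0732), and H2afy with N6 against bulk was at -0.01. H1fx held at most 149 estimated counts in a library, and what depth limits for single members was not tested.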
